A study of Sus scrofa with 96 samples.

Results

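In testis of Landrace boars, 95 of 25322 counted genes had far more reads in total RNA libraries than in stranded mRNA libraries. They were chosen from the measured counts. For each testis library the reads of a gene per 1000000 reads on genes (CPM) were computed, and a gene was taken when the median of log2(CPM + 0.5) was at least 2.5 higher in total RNA than in stranded mRNA libraries, in boars of low genetic merit of boar taint (BT) and again in those of medium BT. A median of at least 10 CPM over all 13 total RNA testes was also required, and the block of identifiers that holds the mitochondrial and most short noncoding RNA genes was left out. The difference of the medians is called the gain here. The gains of low and medium BT therefore describe the choice and are not a finding, whereas the high BT testes entered only through the 10 CPM level and the livers did not enter at all.

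The series holds liver and testis of 48 non-castrated Danish Landrace boars in 3 merit groups of 16 (high, medium and low BT), slaughtered at about the same weight, with animals within a group related as half-siblings at most. Merit is that of the sire, as a sum of breeding values for skatole and for odour scored by human nose, and not a measurement on the pig itself. The kit followed the integrity of the RNA, with the stranded mRNA kit for the better samples and the total RNA kit for those of lower integrity, and every total RNA library was also in batch 3. The stranded mRNA testes numbered 14 in high BT (batch 2), 13 in medium BT (7 in batch 1 and 6 in batch 2) and 7 in low BT (batch 1). The total RNA testes numbered 2 in high BT, 3 in medium BT and 9 in low BT, where 1 library was skipped because only 940 genes were counted. Among livers, 46 had a stranded mRNA library of batch 1, and pigs 1306 (high BT) and 3109 (low BT) had a total RNA library. Kit, batch and RNA integrity cannot be told apart, so a difference between kits below is a difference between these libraries.

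The stranded mRNA kit captures transcripts by their poly(A) tail, whereas the total RNA kit removes ribosomal RNA and keeps transcripts with and without a tail. Most protein-coding transcripts carry a tail. Replication-dependent histone transcripts end in a stem-loop, and small nucleolar and small Cajal body RNAs are trimmed from introns, so these classes lack one. Unspliced nuclear RNA and the 5′ parts of broken transcripts are also lost when only the tail is captured. No sequences, coordinates or lengths of the 95 genes are given here, because no genome of the build used for counting was used.

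The reads on genes ranged from 3689243 to 8263479 in the 13 total RNA testes, from 4881825 to 18045966 in the 34 stranded mRNA testes, from 3728775 to 12156143 in the 46 stranded mRNA livers, and were 3864873 and 4046334 in both total RNA livers. Reads assigned to no gene, which can include intronic reads, made up 40.2% to 69.9% of the total RNA testes and 25.2% to 37.3% of the stranded mRNA testes. In liver they made up 68.9% and 71.5% of the total RNA and 28.9% to 55.9% of the stranded mRNA libraries. The stranded mRNA testis of pig 8308 (medium BT) stood apart: its correlations with the other testes, across genes, had a median of 0.526, against at least 0.959 for each other stranded mRNA testis. Its summed markers of peritubular and stromal cells, endothelial cells and blood were the highest of all stranded mRNA testes and its spermatid markers the lowest, and without it the rule gave 91 genes, of which 90 were among the 95.

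Of the 95 genes, 22 had a symbol in the annotation table used here (23.2%), against 46.6% of all 25322 identifiers and 72.0% of the 8625 genes of at least 10 CPM in the total RNA testes outside the left-out block. The identifiers of 64 members (67.4%) lay in the later series of pig identifiers, against 28.2% of those 8625 genes. The other 73 members are given by identifier, and no name or class was assigned to them. Just inside the threshold, the smaller of the low and medium BT gains was 2.501 for ENSSSCG00000026288, 2.52 for ENSSSCG00000024887 and 2.53 for ENSSSCG00000015939. Just outside it, the smaller gain was 2.49 for ENSSSCG00000030243, 2.46 for SELENOI and 2.44 for ENSSSCG00000021432.

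Together the 95 genes took 2.37% to 6.16% of the reads on genes in the total RNA testes (median 4.56%, n = 13) and 0.0189% to 0.532% in the stranded mRNA testes (median 0.0359%, n = 34). The highest stranded mRNA value was that of pig 8308, in which FN1 alone took 0.411% of the reads. The lowest total RNA value was that of pig 2111 (medium BT), whereas the other medium BT testes had 5.604% (pig 1113) and 6.16% (pig 7110). In both high BT total RNA testes the share was 3.91% (pig 1306) and 5.39% (pig 1331), and in the 14 stranded mRNA testes of high BT it ran from 0.0189% to 0.0868%. The groups of high BT did not overlap. In limma the contrast between kits in low and medium BT, which chose the members, called all 95 higher, where 24.9% of genes were higher, 36.2% lower and 61.1% called in either direction, and nothing is read from that count.

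**Figure D1:**
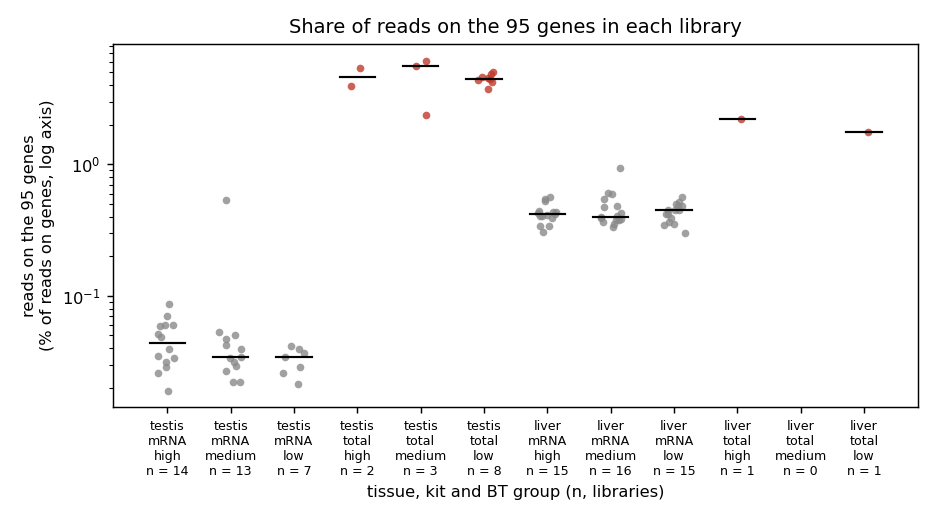
Share of reads on genes taken by the 95 genes in each library, on a log axis, by tissue, kit and BT group; each point is a library and each bar a median. All 13 total RNA testes lie between 2.37% and 6.16% and all stranded mRNA testes at or below 0.532%, while both total RNA livers (1.75% and 2.21%) lie above every stranded mRNA liver.

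A single gene, ENSSSCG00000029605, took 0.857% (pig 2111) to 3.80% (pig 7110) of the reads in the total RNA testes. It had 20534 and 33783 CPM in the high BT total RNA testes, 33102, 8570 and 37976 CPM in those of medium BT, and 18650 to 28732 CPM (median 24607, n = 8) in those of low BT. In the 34 stranded mRNA testes it had 1.85 to 52.5 CPM (median 13.8). The lowest total RNA value, 8570 CPM in pig 2111, was thus far above the highest stranded mRNA value. Its gain was 11.0 in low BT, 11.0 in medium BT and 10.8 in high BT.

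The 9 genes next in gain had mean low and medium BT gains from 9.96 (ENSSSCG00000028335) down to 7.73 (ENSSSCG00000024699), and none of them had a symbol. ENSSSCG00000028335 had 597 and 514 CPM in the total RNA testes of high BT and 0.759 to 3.12 CPM (median 1.62) in the stranded mRNA testes of high BT. ENSSSCG00000023048 had 1603 and 1528 CPM against 0.979 to 6.47 CPM (median 2.34), and ENSSSCG00000027405 had 987 and 972 CPM against 2.56 to 13.5 CPM (median 4.84). For these genes both total RNA testes were above all 14 stranded mRNA testes. The others of this group were ENSSSCG00000023855, ENSSSCG00000024852, ENSSSCG00000029839, ENSSSCG00000029854 and ENSSSCG00000025950, with high BT gains between 7.68 and 9.66. Over all members, 35 had a gain of at least 5 in both low and medium BT, and 2 of these, SCARNA12 and SNORA57, had a symbol.

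The next question was whether the same genes differed between kits in high BT testes, which entered the rule only through the 10 CPM level. All 95 members passed the minimum mean count of 5 in this comparison of 2 total RNA with 14 stranded mRNA testes. A gene near 0 in the stranded mRNA testes can reach that minimum through the total RNA testes, which also entered the 10 CPM level. The member counts are therefore partly set by the choice and are a description. In limma on voom values, 94 of 95 rose in the total RNA libraries at an adjusted p under 0.05, where 15.6% of the 15318 genes tested rose, 20.1% fell and 35.7% were called in either direction. The members' median log2 fold change was 5.05, against −0.19 over all genes tested. For 93 of 95 both total RNA testes lay above every stranded mRNA testis, a pattern found in 13.2% of the genes tested. A gain of 2.5 or more was found in high BT testes for 94 of 95 members. It was found for 2.01% of the 8625 genes of at least 10 CPM in total RNA testes, members included. With no minimum count, limma again called 94 of 95 members higher, beside 2825 of 20909 genes. Scaling the libraries by TMM factors moved the median of all genes from −0.19 to −0.01, and the split of all calls from 2388 higher and 3077 lower to 3365 higher and 2507 lower, with all 95 members higher. Library kit, batch and RNA integrity moved together here as elsewhere, and their separate parts cannot be told apart.

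**Figure D2:**
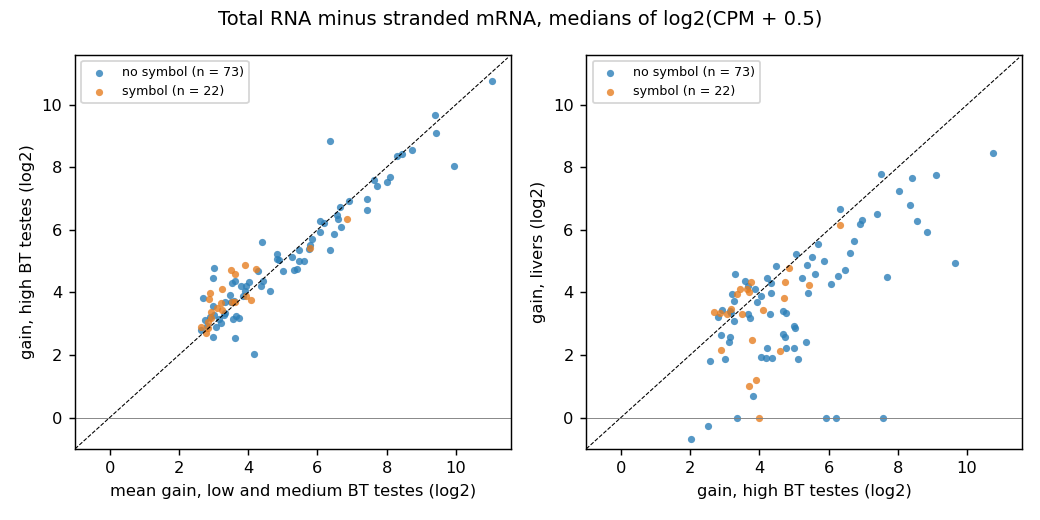
Gain of each of the 95 genes (total RNA minus stranded mRNA, difference of median log2(CPM + 0.5)): left, high BT testes against the mean gain of low and medium BT testes; right, livers against high BT testes; the dashed line marks equal gains, blue points are the 73 genes without and orange points the 22 genes with a symbol. In high BT every gene lies above 2.0, and in livers 71 of 95 lie at 2.5 or more whereas 8 lie under 1.

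The member not called was ENSSSCG00000024853, at 538 and 600 CPM in the high BT total RNA testes. In the 14 stranded mRNA testes of high BT it ran from 11.3 to 649 CPM (median 141), so the groups overlapped, and the log2 fold change was 2.34 (SE 1.03, adjusted p = 0.0835, limma). It passed the threshold under TMM factors and without sample quality weights. The same gene was abundant in liver with either kit, from 302 to 8195 CPM (median 1224) in the stranded mRNA livers. FN1 was the other gene whose groups overlapped.

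The members with a symbol are first described as noncoding RNAs and histones, the classes known to lack a poly(A) tail. SCARNA12, a small Cajal body RNA that guides the modification of spliceosomal RNAs, had 151 and 135 CPM in the total RNA testes of high BT, against 0.443 to 2.35 CPM (median 1.27) in the stranded mRNA testes. It was also the steadiest member with a symbol, at 120 to 176 CPM over all 13 total RNA testes (SD of log2 CPM 0.17). Its log2 fold change in high BT was 6.98 (SE 0.25, adjusted p = 1.29e-14, limma). SNORA57, a small nucleolar RNA of the class that guides pseudouridylation of ribosomal RNA, had 35.1 and 31.5 CPM against 0 to 1.50 CPM (median 0.287). Both groups were apart for either gene.

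Of the other small nucleolar and small Cajal body RNA genes outside the left-out identifier block, 3 more reached the minimum count, and SNORA61 rose (log2 fold change 1.404) while SNORD12B and SNORD99 did not pass the test at 0.79 and 0.72. Within the left-out block, 12 of 18 such genes tested rose and none fell, with a median log2 fold change of 3.82. Not every gene of the class was therefore higher. H1-3, a linker histone packaging newly replicated DNA, had 42.2 and 44.9 CPM against 1.12 to 11.1 CPM (median 2.91) in high BT, with a log2 fold change of 3.89 (SE 0.40, adjusted p = 4.09e-07, limma). Of 138 histone symbols looked up, 2 were paired with an identifier, and the second, H2BC5, rose by 1.70 on the log2 scale.

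**Figure D3:**
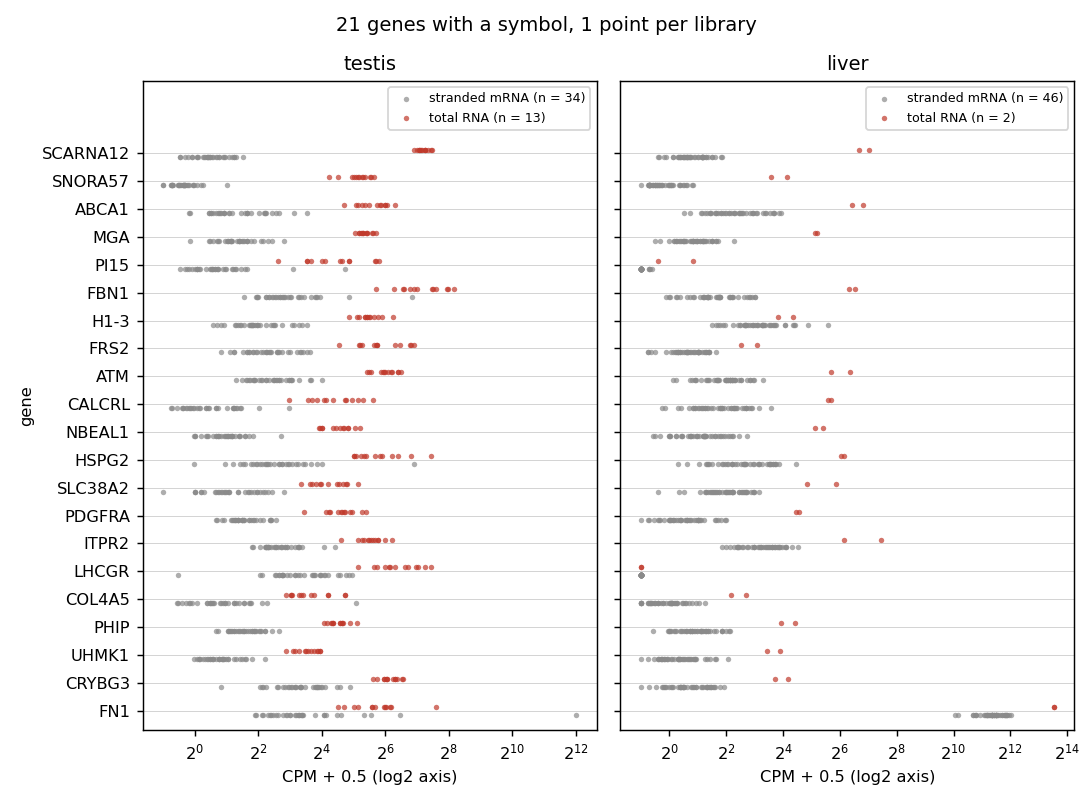
CPM + 0.5 on a log2 axis of 21 genes with a symbol in every library, ordered by gain from the top, for testis (left) and liver (right); grey points are stranded mRNA and red points total RNA libraries. SCARNA12 spans 120 to 176 CPM over the 13 total RNA testes, and LHCGR is at 0 in all livers; the isolated grey point of FN1 in testis is pig 8308.

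The signalling receptors came next. LHCGR, the luteinizing hormone receptor through which Leydig cells are driven to make androgens, had 151 and 129 CPM in the high BT total RNA testes. In the stranded mRNA testes of high BT it had 3.68 to 22.1 CPM (median 8.44), and the log2 fold change was 3.99 (SE 0.38, adjusted p = 1.24e-07, limma). Of the 7 Leydig cell genes tested, LHCGR and NR5A1 (1.56) rose and none fell, while the steroidogenic enzymes CYP11A1 (0.76), CYP17A1 (1.08) and HSD17B3 (−0.49) did not pass the test. FSHR, the related receptor of Sertoli cells, did not pass it either (0.28).

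PDGFRA, a receptor for platelet-derived growth factor, had 23.96 and 30.5 CPM in high BT against 1.12 to 3.66 CPM (median 2.17), a log2 fold change of 3.62 (SE 0.24, adjusted p = 3.75e-10, limma). Its relative PDGFRB did not pass the test (0.30). CALCRL, which with its partner proteins forms receptors for calcitonin gene-related peptide and adrenomedullin, had 26.7 and 34.8 CPM against 0.179 to 1.99 CPM (median 0.690). FRS2, an adaptor of fibroblast growth factor receptors, had 109 and 120 CPM against 2.75 to 11.1 CPM (median 4.27). In each of these receptors and the adaptor both total RNA testes lay above all stranded mRNA testes of high BT.

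Among matrix genes, FBN1, the main protein of extracellular microfibrils, had 179 and 178 CPM against 3.32 to 14.9 CPM (median 5.64) and a log2 fold change of 4.98 (SE 0.29, adjusted p = 3.18e-11, limma). HSPG2, the basement membrane proteoglycan perlecan, had 83.4 and 113 CPM against 2.51 to 14.0 CPM (median 5.21). COL4A5, a chain of basement membrane collagen, had 17.9 and 26.2 CPM against 0.179 to 2.75 CPM (median 1.11). In these 3 genes the kits did not overlap in high BT. FN1, fibronectin, was the exception, at 70.1 and 51.0 CPM against 3.18 to 87.8 CPM (median 7.68). Its log2 fold change was 2.92 (SE 0.60, adjusted p = 8.79e-04, limma).

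Relatives of the matrix genes were looked up in families chosen once the members were known. Of 5 type IV collagen genes tested, 4 rose and COL4A2 (1.08) did not pass the test. Of 12 basement membrane genes, 8 rose and none fell, among them NID1 (4.03) and LAMB2 (2.25). HSPG2 and COL4A5 are counted in these families, which were built around them.

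The remaining members with a symbol had roles in transport, calcium release, transcription and the DNA damage response. ABCA1, which moves cholesterol out of cells, had 38.2 and 65.5 CPM in the high BT total RNA testes against 0.873 to 5.78 CPM (median 1.39). SLC38A2, a carrier of neutral amino acids, had 24.7 and 27.0 CPM against 0.499 to 4.42 CPM (median 1.83). ITPR2, an inositol trisphosphate receptor that releases calcium from the endoplasmic reticulum, had 46.3 and 53.7 CPM against 3.68 to 9.89 CPM (median 5.11). In all 3 the kits were apart, and ITPR1, a relative that was not a member, rose by the same 3.18 on the log2 scale as ITPR2.

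ATM, the kinase that signals DNA double-strand breaks, had 46.7 and 83.1 CPM against 2.56 to 12.2 CPM (median 4.34). Of 4 related kinases tested, PRKDC rose (1.79) and ATR (0.47), MTOR (−0.04) and TRRAP (0.69) did not pass the test. MGA, a transcription factor that pairs with MAX, was as steady as SCARNA12, at 32.6 to 52.2 CPM over the 13 total RNA testes (SD of log2 CPM 0.19). PI15, a secreted protein of the family of peptidase inhibitor 15, was the least steady symbol, at 5.59 to 54.6 CPM (SD of log2 CPM 0.97). NBEAL1, PHIP, UHMK1 and CRYBG3 also rose in high BT, with log2 fold changes between 2.66 (CRYBG3) and 3.93 (NBEAL1). Among relatives, members counted in, 3 of 8 ABCA transporters, 2 of 8 SLC38 carriers, 3 of 6 BEACH domain proteins and 1 of 4 genes of the calcitonin receptor family rose, and 1 SLC38 carrier (SLC38A9, −0.70) fell.

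Markers of some cell types moved between the kits as well, in high BT testes where 15.6% of all genes rose and 20.1% fell. In high BT testes, 12 of 16 spermatid markers tested fell in the total RNA libraries and none rose (median log2 fold change −1.06). Of 8 peritubular and stromal markers 4 rose, the member PDGFRA among them. All 3 endothelial, 2 of 7 Leydig (the member LHCGR and NR5A1) and 1 of 4 macrophage markers also rose. No marker of these cell types fell. Both blood markers rose in this comparison. Of 10 Sertoli markers 1 fell and none rose, of 8 spermatocyte markers 1 fell, and of 6 spermatogonia markers 2 rose. In liver, where 28.3% of all genes rose and 16.6% fell, 4 of 7 stromal, all 3 endothelial and both spermatogonia markers tested rose. There 1 of 4 macrophage and 1 of 2 blood markers fell. The summed spermatid markers lay at 960 to 56425 CPM (median 37216) in the stranded mRNA and at 12819 to 29575 CPM (median 24291) in the total RNA testes, and the stromal sums at 388 to 30157 CPM (median 776) and 730 to 2731 CPM (median 1486). None of these markers was at 0 in all testes. Their part in the members' difference was not tested, and in bulk tissue fewer cells of a type and less RNA per cell cannot be told apart.

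The livers ask whether the difference between kits was bound to testis. In both total RNA livers the 95 genes took 2.21% (pig 1306, high BT) and 1.75% (pig 3109, low BT) of the reads on genes, against 0.301% to 0.935% (median 0.421%) in the 46 stranded mRNA livers. FN1, which hepatocytes secrete into plasma, made up 1.18% and 1.17% of the reads in these livers. For 83 of 95 members, with no minimum count, both total RNA livers lay above all 46 stranded mRNA livers. Among liver genes of mean count above 5, this held for 60 of 65 members and for 15.8% of all 12225 genes. The gain was 2.5 or more in liver for 71 of 95, against 4.14% of the 8625 genes of at least 10 CPM in the total RNA testes, members included.

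In limma, 65 members passed the minimum mean count in liver, and 62 of them rose and none fell, where 28.3% of all genes rose, 16.6% fell and 44.9% were called in either direction. Because a gene that is low in 46 libraries reaches that minimum through the total RNA libraries, these 65 are not all members and the count is a description. With no minimum, 93 were tested and 89 rose, against 37.9% of the 19457 genes. SCARNA12 had 130 and 102 CPM in the total RNA livers against 0.256 to 3.12 CPM (median 1.12), close to its total RNA level in testis. FBN1 had 79.7 and 92.2 CPM against 0.416 to 7.62 CPM (median 2.66), a log2 fold change of 4.87 (SE 0.32, adjusted p = 3.37e-18, limma). Both groups were apart in either gene. ENSSSCG00000029605 had 1072 and 755 CPM in the total RNA livers against 0.190 to 18.1 CPM (median 2.08), which is below its total RNA level in every testis.

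FN1 had 11812 and 11727 CPM in the total RNA livers and 1053 to 4129 CPM (median 2630) in the others, with a log2 fold change of 2.20 (SE 0.22, adjusted p = 5.13e-12, limma). H1-3 did not pass the test, at 13.5 and 20.02 CPM against 2.31 to 47.1 CPM (median 7.91), a log2 fold change of 1.04 (adjusted p = 0.0591, limma). The other members tested and not called were ENSSSCG00000024853 (−0.67) and ENSSSCG00000022645 (−0.22). ENSSSCG00000023855 rested on 1 library, with 1198 CPM in pig 1306 and 16.8 CPM in pig 3109. Its log2 fold change of 5.17 became 1.90 without pig 1306, when it no longer passed the test, and 8.33 without pig 3109.

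Of the 95 members, 5 were at 0 in both total RNA livers: LHCGR, ENSSSCG00000001102, ENSSSCG00000023900, ENSSSCG00000027096 and ENSSSCG00000001105. A count of 0 allows up to 0.776 CPM in pig 1306 and 0.741 CPM in pig 3109, counting error only. In testis these genes were high in total RNA, for example ENSSSCG00000023900 at 863 and 915 CPM and ENSSSCG00000027096 at 837 and 938 CPM in high BT. Their stranded mRNA testes of high BT had 8.33 to 15.4 CPM and 9.40 to 24.2 CPM. ENSSSCG00000001102 had 351 and 384 CPM against 0.881 to 3.41 CPM. No stranded mRNA liver had more than 0.127 CPM of any of them.

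The difference between tissues in the kit contrast was tested itself, in 1 model of the high BT testes and all livers. Of 94 members tested, 27 had a larger kit difference in testis and 1 a larger one in liver, where 4.81% of all genes were called in the first and 20.1% in the second direction (24.9% in either). The members were chosen for a gain in testis, with no condition on liver. A larger kit difference in testis is thus partly set by the choice, and the count is a description. The count depended on the tool, with 12 called with edgeR, beside 700 genes in the testis and 1013 in the liver direction. The sizes depended on the libraries. Without the liver of pig 3109 the members' median difference was 0.59, against 0.76 with it. The strongest was ENSSSCG00000001102, at 6.64 (SE 0.33, adjusted p = 1.85e-25, limma), one of the 5 genes at 0 in both total RNA livers. All 5, LHCGR among them, were called, but at 0 in 42 to 46 of the 46 stranded mRNA livers they had no measured kit difference in liver, so their fitted sizes depend on the small count added in voom and are no bounds. H1-3 (2.82), FRS2 (2.19) and CALCRL (1.84) were the called members with a symbol that were counted in both livers. The one in the other direction was ENSSSCG00000026668 (−2.19), at 42.5 and 43.7 CPM in the total RNA testes of high BT and 6.21 and 8.90 CPM in the livers, against stranded mRNA medians of 4.06 and 0.1004 CPM. The call was lost when either total RNA liver was left out.

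The next comparison asked whether pigs whose testis went into a total RNA library differed in liver RNA made with the stranded mRNA kit. Of the 53 members tested none was called, nor was any of the 12198 genes (0.0%), and at an unadjusted p under 0.05 there were 6 members and 1978 genes. edgeR and DESeq2 also called none. CRYBG3 had the lowest adjusted p (0.200, limma), with a log2 difference of −1.13 (SE 0.38). The members' median difference was −0.14, beside −0.17 over all genes.

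Genetic merit was compared within a kit, where kit and batch do not enter. The total RNA libraries still differed between merit groups. Reads assigned to no gene made up 41.6% and 49.0% in high BT, 40.2%, 59.5% and 43.9% in medium BT and 52.3% to 69.9% in low BT. The part of this in the differences was not tested. Among total RNA testes, medium against low BT called 0 of 95 members and 0.0% of 14779 genes in limma, with 44 members and 2836 genes at an unadjusted p under 0.05. These became 2 members and 81 genes without pig 1113, 5 and 181 without pig 7110, and 42 and 2414 without pig 2111. edgeR and DESeq2 called no member, and TMM factors before voom called 4, beside 37 genes higher and 71 lower. High against low BT also called 0 of 95 members, where 0.0474% of genes were called. At an unadjusted p under 0.05 there were 20 members and 1134 of the 14779 genes. DESeq2 called 3 members, beside 196 genes higher and 25 lower, and edgeR none, beside 23 higher and 1 lower. These comparisons rest on 3 medium and 2 high BT testes, and the median SE of a member's log2 difference was 0.18 and 0.29.

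Among stranded mRNA testes the members were near the lower end of what was counted, and 38 of 95 had a median under 1 CPM. Medium against low BT within batch 1 tested 72 members and called none (0.0% of all genes), with 11 members and 2252 of 15411 genes at an unadjusted p under 0.05. High against medium BT within batch 2 tested 78 members and called none (0.00659% of all genes), with 8 members and 627 of 15164 genes at an unadjusted p under 0.05. edgeR and DESeq2 called no member in either. ENSSSCG00000028335 had the largest fall among members between total RNA testes of high and low BT, at 597 and 514 CPM against 879 to 3681 CPM (median 2136), a log2 difference of −1.88 that did not pass the adjustment (SE 0.51, adjusted p = 0.223, limma). In stranded mRNA testes of batch 2 its difference between high and medium BT was −0.84 (SE 0.26, adjusted p = 0.942, limma).

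Without regard to kit, high against low BT in testis is also a contrast of few with many total RNA libraries, 2 of 16 against 8 of 15. The 8 total RNA testes of low BT are among the libraries that chose the members, so their direction in this model was set by the choice and is given as a description. In that model all 95 members were lower in high BT at an adjusted p under 0.05, where 21.3% of the 15365 genes were lower, 31.2% higher and 52.5% called in either direction, and the members' median log2 fold change was −3.17. The count fell to 3 with edgeR, 30 with DESeq2 and 0 without sample quality weights. The log2 fold change was −2.03 (SE 0.41) for LHCGR and −3.17 (SE 0.52) for FBN1. Within the total RNA testes the differences were 0.85 (SE 0.41) for LHCGR and 0.29 (SE 0.46) for FBN1, neither of which passed the test.

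With kit added to the same model, 1 of 95 members was lower, where 0.631% of genes were lower, 1.66% higher and 2.29% called in either direction, and no member was higher. The members' median log2 fold change was then −0.16. The member was ENSSSCG00000028335 at −1.396 (SE 0.29, adjusted p = 0.0142, limma), which edgeR did not call. Batch was not a term of the model. Between stranded mRNA testes, high against low BT is also batch 2 against batch 1. Merit and batch therefore cannot be told apart there, and the call is not read as an effect of merit. LHCGR stood at 0.11 (SE 0.28) and FBN1 at −0.20 (SE 0.26) in this model.

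**Figure D4:**
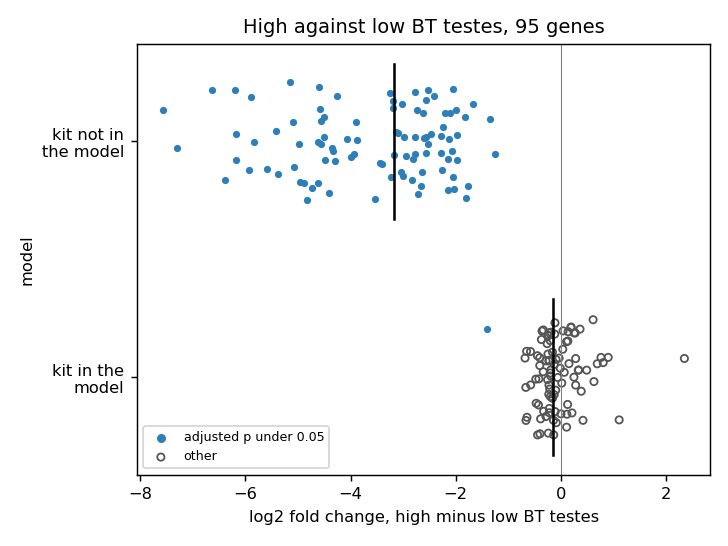
Log2 fold change of the 95 genes between high and low BT testes in models without kit (top) and with kit (bottom); filled points passed an adjusted p under 0.05 in limma and black bars are medians. Without kit all 95 are below 0 (median −3.17), a direction set by how the genes were chosen. With kit, but without batch, 1 is called (median −0.16).

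Within the total RNA testes the spread between pigs was taken as the SD of log2 CPM over the 13 testes. It had a median of 0.41 over the 95 members and of 0.30 over the 8625 genes of at least 10 CPM, members included. The sets were not matched by level, so the difference is not read as a trait of the members. The members' spread was uneven, from 0.17 (SCARNA12) to 2.18 (ENSSSCG00000021003). The members with a symbol took the largest share of reads, 0.171%, in pig 2111, the testis in which ENSSSCG00000029605 was lowest. In pigs 1113 and 7110 of the same BT group they took 0.0905% and 0.0848%.

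The values of 3 members, named after they were seen, are given pig by pig, because 1 or 2 total RNA testes lay far from the rest. They are examples and not a count over the 95. ENSSSCG00000021003 had 2091 CPM in pig 1331 (high BT) and 1172 CPM in pig 1127 (low BT) but 12.2 to 82.5 CPM in the other 11 total RNA testes. ENSSSCG00000022489 had 4.97 CPM in pig 1325 (low BT) and at least 163 CPM in the other 12. ENSSSCG00000023855 had 132 CPM in pig 3109 (low BT) and 1488 to 6763 CPM in the other 12. The pigs differed from gene to gene.

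The livers of the same pigs gave a second library for each. For ENSSSCG00000021003, the stranded mRNA livers of pigs 1331 and 1127 had 14 and 7 reads, and the 9 stranded mRNA livers of the other pigs with a total RNA testis had 0 or 1. In the 34 pigs with both tissues in stranded mRNA libraries, 4 testes had more than 2 reads of this gene (11 to 39), and their livers had 3 to 42. Among the other 30 pigs 1 liver had more than 2 reads (11 reads, pig 1326, 2 reads in testis). For ENSSSCG00000023855, pig 3109 was the lower of both total RNA livers too, at 16.8 against 1198 CPM. The liver of pig 1325 had 0.731 CPM of ENSSSCG00000022489 (7 reads), above the lowest stranded mRNA liver (0.375 CPM).

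**Figure D5:**
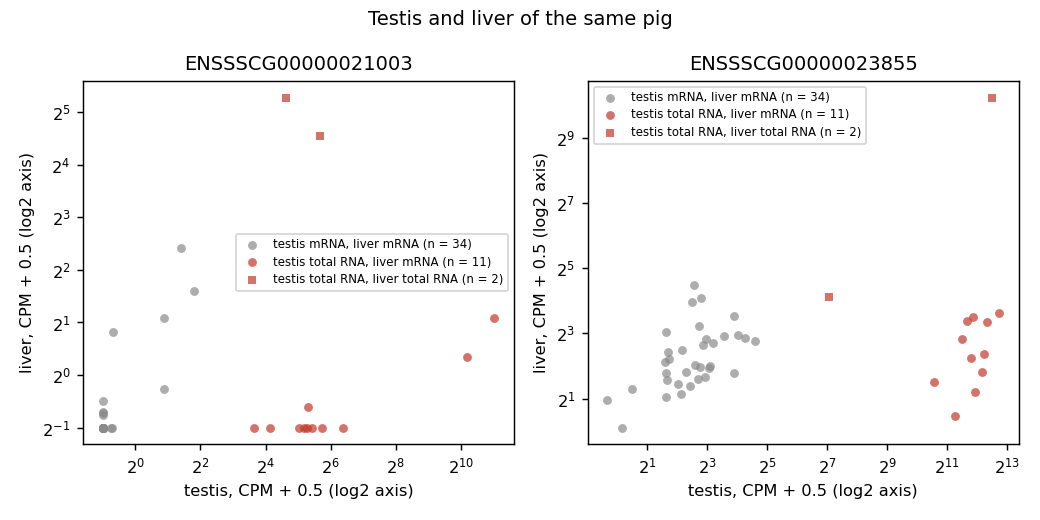
CPM + 0.5 in testis (horizontal) and liver (vertical) of the same pig, log2 axes, for ENSSSCG00000021003 (left) and ENSSSCG00000023855 (right); each point is a pig, coloured by the kit of the testis, with squares where the liver was also a total RNA library. On the left the red circles at 2091 and 1172 CPM in testis have the highest livers among the red circles, and on the right the square at 132 CPM in testis (pig 3109) has 16.8 CPM in liver against 1198 CPM in the other.

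Whether members varied together in testis and liver of a pig was tested over the 34 pigs with stranded mRNA libraries of both, by permutation with 100000 resamples. Of 49 members counted well enough in both tissues none was called, against 0.498% of 11444 genes with a positive correlation. At an unadjusted p under 0.05 there were 2 members and 654 genes. ENSSSCG00000023855 had the highest correlation (Pearson r = 0.53, permutation p = 0.00122, adjusted p = 0.184; Spearman rho = 0.52, permutation p = 0.00171, adjusted p = 0.222). It was 0.50 in the 14 pigs of testis batch 1 and 0.54 in the 20 of batch 2, and 0.38 without the 2 testes farthest from the median. The members' median r was 0.00, beside 0.01 over all genes. ENSSSCG00000021003 was too low for this test, so its values in both tissues are a description.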

How the data were processed

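RNA-Seq counts of 48 testes and 48 livers were used as the authors deposited them. Upstream the authors used Trimmomatic 0.33 and cutadapt 1.8.1 for trimming, STAR for mapping and HTSeq 0.6.0 with default settings for counting, on build Sus scrofa 10.2 with annotation of Ensembl release 79. The deposited values are raw counts without normalisation. Reads from overlapping genes, repeated copies or unspliced RNA cannot be told apart in these counts.

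CPM was computed on the sum over gene identifiers. Counts were fitted with limma 3.58.1 (R 4.3.3) on voom values with sample quality weights and library sizes, for genes with a mean count above 5, with Benjamini-Hochberg adjustment over all genes tested at 0.05, two-sided. Separate pigs are the replicates, and sires were not modelled. edgeR 4.0.16 (quasi-likelihood, TMM), DESeq2 1.42.0 (Wald), TMM factors before voom, no quality weights, no minimum count and leaving out single libraries were the alternatives, and the fits were tested on simulated data.

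The members and the lists were chosen with earlier results of these data known. Named were the 10 members of largest gain, the 10 of highest CPM, those on lists or with a symbol, 3 on each side of the threshold and those called against the rest. Families, the pigs named and the testis with liver correlations were added after values were seen. Symbols were paired with 11804 of 25322 identifiers. The lists of structural noncoding and of nuclear long noncoding RNAs matched 0 identifiers. CPM compares a gene between libraries, not genes with each other, since lengths were not used. The values of 1 member with a symbol are not reported here.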

Additional observations from a re-analysis of the deposited data

Results flagged for a closer look

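The kit difference of 28 members differed between high BT testes and livers in the model of both tissues (27 larger in testis, limma, adjusted p under 0.05). Over all genes 4.81% were called larger in testis and 20.1% larger in liver. The members were chosen for a gain in testis, so this direction is partly set by the choice. Among the genes named here these were ENSSSCG00000001102 (6.64), ENSSSCG00000023900 (5.17), ENSSSCG00000027096 (4.92), ENSSSCG00000023855 (4.84), ENSSSCG00000021003 (3.57), H1-3 (2.82), LHCGR (2.82), ENSSSCG00000022645 (2.78), ENSSSCG00000024852 (2.36), ENSSSCG00000001105 (2.36), FRS2 (2.19), ENSSSCG00000029605 (2.13), CALCRL (1.84), ENSSSCG00000024699 (1.67) and ENSSSCG00000029839 (1.53), all on the log2 scale as testis minus liver, and ENSSSCG00000026668 (−2.19). ENSSSCG00000001102, ENSSSCG00000023900, ENSSSCG00000027096, LHCGR and ENSSSCG00000001105 were at 0 in both total RNA livers and in 42 to 46 of the 46 stranded mRNA livers. Their sizes rest on the small count added in voom and cannot be ranked with the others. For 2 more genes the size rests on unlike libraries. ENSSSCG00000023855 had 1198 and 16.8 CPM in the total RNA livers of pigs 1306 and 3109. ENSSSCG00000021003 had 24.3 and 2091 CPM in the total RNA testes of pigs 1306 and 1331.

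A library stood far from the others of its group in 5 of 44 sets of values checked, a check that flags about 1 in 20 by chance. The share of reads on members was 0.532% in 1 stranded mRNA testis of medium BT in batch 1 (pig 8308), and 0.0268% to 0.0530% in the other 6. Among the 8 total RNA testes of low BT, the lowest ENSSSCG00000022489 was 4.97 CPM against 254 to 684 CPM in the others, and the lowest ENSSSCG00000023855 was 132 CPM against 2470 to 6763 CPM. The highest ENSSSCG00000021003 was 1172 CPM against 17.2 to 53.0 CPM. The lowest ENSSSCG00000024699 was 72.5 CPM against 129 to 203 CPM.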

How the results depend on the processing

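Of 84 recomputed member counts, 69 stayed within 1.5 times the reported count. The rule itself gave 71 to 140 genes over its alternatives. Members called in high BT testes numbered 94 or 95 under every alternative, with 94 without either total RNA testis. In liver the count was 62 under the other tools, 55 and 56 without a total RNA liver, 65 with only high and low BT and 89 of 93 with no minimum count. For the difference between tissues (28) edgeR gave 12 and DESeq2 16, leaving out a library gave 9 to 22, and the pig as a replicate block, for pairs of tissues from the same animal, gave 28 again (correlation within a pig −0.04), with 677 higher and 2943 lower calls over all genes against 723 and 3024. The block was run for this comparison alone. Merit among total RNA testes gave 4 members with TMM factors for medium against low BT, and for high against low BT 3 with DESeq2 and 1 without either high BT testis. High against low BT without kit gave 3 with edgeR, 30 with DESeq2 and 0 without quality weights, against 95. With kit it gave 2 with TMM factors and 2 without pig 8308, and 0 with edgeR and without quality weights, against 1. The cause of these changes was not tested. Counts over all genes moved as well, for example from 8068 to between 296 and 10383 in high against low BT without kit, from 352 to between 4 and 543 with kit, from 3747 to between 1463 and 5307 in the difference between tissues, from 5494 to between 2069 and 9461 in liver, from 7 to between 5 and 221 in high against low BT and from 0 to up to 108 in medium against low BT among total RNA testes. Both total RNA livers and the 2 total RNA testes of high BT limit every kit comparison.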
